A study of Mus musculus with 36 samples.

Results

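The NR4A and EGR genes of T cell receptor (TCR) signalling were followed as a group of 6 genes, Nr4a1, Nr4a2, Nr4a3, Egr1, Egr2 and Egr3, picked by name out of the 56748 genes of a single count table. All 6 were found and all 6 passed the filter on low counts in each of the 18 comparisons. The table held RNA-seq of mouse CD4+ T cells from 2 lines, each as wild type (WT) and knockout (KO) in 3 conditions, which gave 12 groups of 3 libraries. In the HP1a line, KO cells lacked Cbx5, the gene of heterochromatin protein HP1α, in every tissue, after excision by CMV-cre, and WT cells came from +/+ littermates. In the HP1g line, KO cells lost Cbx3, the gene of HP1γ, through Cd4-cre, which acts in T cells from the thymus onwards, and WT cells carried the floxed allele without cre. Mice of both lines were 6 to 12 weeks old, matched for sex and of mixed 129/Sv and C57BL/6 background. For sequencing, the authors state that they used males.

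Naive cells were splenic naive CD4+ T cells purified by magnetic depletion. The Tconv (conventional T cell) groups were such cells given to irradiated hosts with syngeneic and semi-allogeneic bone marrow, and the Tconv with Treg groups were co-injected with expanded WT regulatory T cells (Treg). At 3 weeks, the TCR Vβ6+ cells, which respond to a superantigen of the semi-allogeneic cells, were sorted from the spleen. Activation, time in a host and the way cells were isolated therefore changed together between naive and Tconv groups and cannot be told apart. Replicate 3 of the HP1g KO cells grafted with Treg was set aside because its read quality was abnormal, so that group had 2 libraries and 35 were used. The labels give no animal for a library, so p-values measure the spread between these libraries, which may be technical.

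Nr4a1, Nr4a2 and Nr4a3 encode orphan nuclear receptors, and Egr1, Egr2 and Egr3 encode zinc finger transcription factors. Transcription of both families starts within minutes to hours of TCR engagement, downstream of calcium, calcineurin and NFAT for NR4A and mostly of the ERK pathway for EGR. Egr2, Egr3 and the NR4A factors are also known from anergic, exhausted and regulatory T cells, where they restrain effector genes. Nr4a1 (ENSMUSG00000023034) lies on chromosome 15 at 101151980-101172681, Nr4a2 (ENSMUSG00000026826) on chromosome 2 at 56996842-57014331 and Nr4a3 (ENSMUSG00000028341) on chromosome 4 at 48045153-48086447. Egr2 (ENSMUSG00000037868) lies on chromosome 10 at 67371305-67378018 and Egr3 (ENSMUSG00000033730) on chromosome 14 at 70314350-70320063 (all GRCm39).

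Promoters are shown as background on the genes, and the part of their sites in any change in these data was not tested. RefSeq (GRCm38.p6) gave a window from 250 bases before to 50 after the start for 4 of the 6 genes. The windows are chr15:101266596-101266895 (plus strand) for Nr4a1, chr2:57123954-57124253 (minus strand) for Nr4a2, chr4:48045055-48045354 (plus strand) for Nr4a3 and chr10:67537619-67537918 (plus strand) for Egr2, the middle of its 5 listed starts. They read 5′ to 3′, with capitals for the core of the cAMP response element (TGACG on either strand), the CArG box, the site of serum response factor, and the EGR site GCGNGGGCG.
Nr4a1: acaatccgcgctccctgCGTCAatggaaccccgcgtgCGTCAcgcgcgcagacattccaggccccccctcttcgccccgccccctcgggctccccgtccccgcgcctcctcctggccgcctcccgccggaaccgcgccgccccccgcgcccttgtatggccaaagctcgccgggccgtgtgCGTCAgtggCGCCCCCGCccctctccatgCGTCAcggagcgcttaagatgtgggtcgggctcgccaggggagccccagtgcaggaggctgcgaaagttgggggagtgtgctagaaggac
Nr4a2: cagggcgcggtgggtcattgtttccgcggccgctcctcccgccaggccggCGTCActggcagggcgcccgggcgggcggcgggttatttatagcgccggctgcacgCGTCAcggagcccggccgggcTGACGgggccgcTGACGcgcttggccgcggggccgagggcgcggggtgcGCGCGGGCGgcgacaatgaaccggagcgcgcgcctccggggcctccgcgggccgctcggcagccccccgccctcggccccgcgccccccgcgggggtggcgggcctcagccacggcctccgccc
Nr4a3: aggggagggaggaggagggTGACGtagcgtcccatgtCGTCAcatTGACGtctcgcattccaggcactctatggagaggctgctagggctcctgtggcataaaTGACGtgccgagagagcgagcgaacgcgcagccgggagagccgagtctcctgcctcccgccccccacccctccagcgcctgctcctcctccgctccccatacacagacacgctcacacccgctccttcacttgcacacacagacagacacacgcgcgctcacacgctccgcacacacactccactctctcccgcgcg
Egr2: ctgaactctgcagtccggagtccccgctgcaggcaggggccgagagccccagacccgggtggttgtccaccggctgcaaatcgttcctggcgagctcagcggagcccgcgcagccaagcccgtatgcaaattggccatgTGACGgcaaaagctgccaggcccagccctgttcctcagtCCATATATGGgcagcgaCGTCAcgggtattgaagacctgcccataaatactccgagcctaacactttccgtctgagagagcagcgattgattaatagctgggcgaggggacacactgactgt
Each NR4A window held 4 TGACG cores, and the Egr2 window held 2 of them and a CArG box. Of 32851 mouse promoter windows of the same length, 0.231% held at least 4 cores, 5.01% at least 2 and 20.8% at least 1. The cut-offs of 4 and 2 cores were taken from the windows shown. A CArG box stood in 1.63% of windows. The Nr4a1 and Nr4a2 windows each held 1 EGR site, which 5.55% of windows had. None of the 4 windows held the full element TGACGTCA (1.79% of windows) or AAAGGTCA, the site NR4A factors bind as monomers (1.51% of windows).

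Estimated counts summed to between 37029519 and 63042245 per library (median 46844690), so that 3 counts equalled 0.0451 to 0.0819 CPM (counts scaled to a common library size), and these limits cover counting error only. Defining CD4 T cell genes (Cd3d, Cd3e, Cd4, Lck, Thy1 and Cd5) summed to between 3914 and 5718 CPM in every library. The targeted genes followed the labels, since KO libraries were all lower than the WT libraries of their line and condition, for Cbx5 in HP1a (9.2 to 19.7 against 18.5 to 61.8 CPM over the 3 conditions) and for Cbx3 in HP1g (60.5 to 80.8 against 79.1 to 199 CPM). Transcripts of myeloid cells were near 10 CPM in naive libraries and reached 557 CPM in grafted ones, and those of red cells reached 5445 CPM in replicate 1 of the HP1g grafted groups against at most 272 CPM in their other replicates.

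The 6 genes differed widely in level. Egr1 (ENSMUSG00000038418) lies on chromosome 18 at 34992876-34998049 (GRCm39). Per kilobase of the canonical transcript, the mean over the 35 libraries was 206 CPM for Nr4a1 and 116 CPM for Egr1, against 12.3 CPM for Nr4a2, 11.9 CPM for Egr2, 4.01 CPM for Nr4a3 and 2.18 CPM for Egr3. Nr4a2 ranged most, from 0.532 to 374 CPM, a 703-fold range, and Egr3 least, from 3.84 to 21.8 CPM. In the order of the 12 group means, neighbouring groups overlapped in all cases for Nr4a1, Nr4a3 and Egr3. For Nr4a2 a gap without overlap separated the 6 highest groups, which were all Tconv with Treg groups and both HP1g Tconv groups, from the others. The 3 libraries of HP1g WT Tconv had the highest mean of Nr4a1 (1047 ± 539 CPM, SD, n = 3), Nr4a3 (37.2 ± 20.8 CPM) and Egr1 (1419 ± 505 CPM), and HP1a WT Tconv with Treg had that of Nr4a2 (189 ± 160 CPM), Egr2 (84.8 ± 39.8 CPM) and Egr3 (18.1 ± 1.31 CPM).

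**Figure D1:**
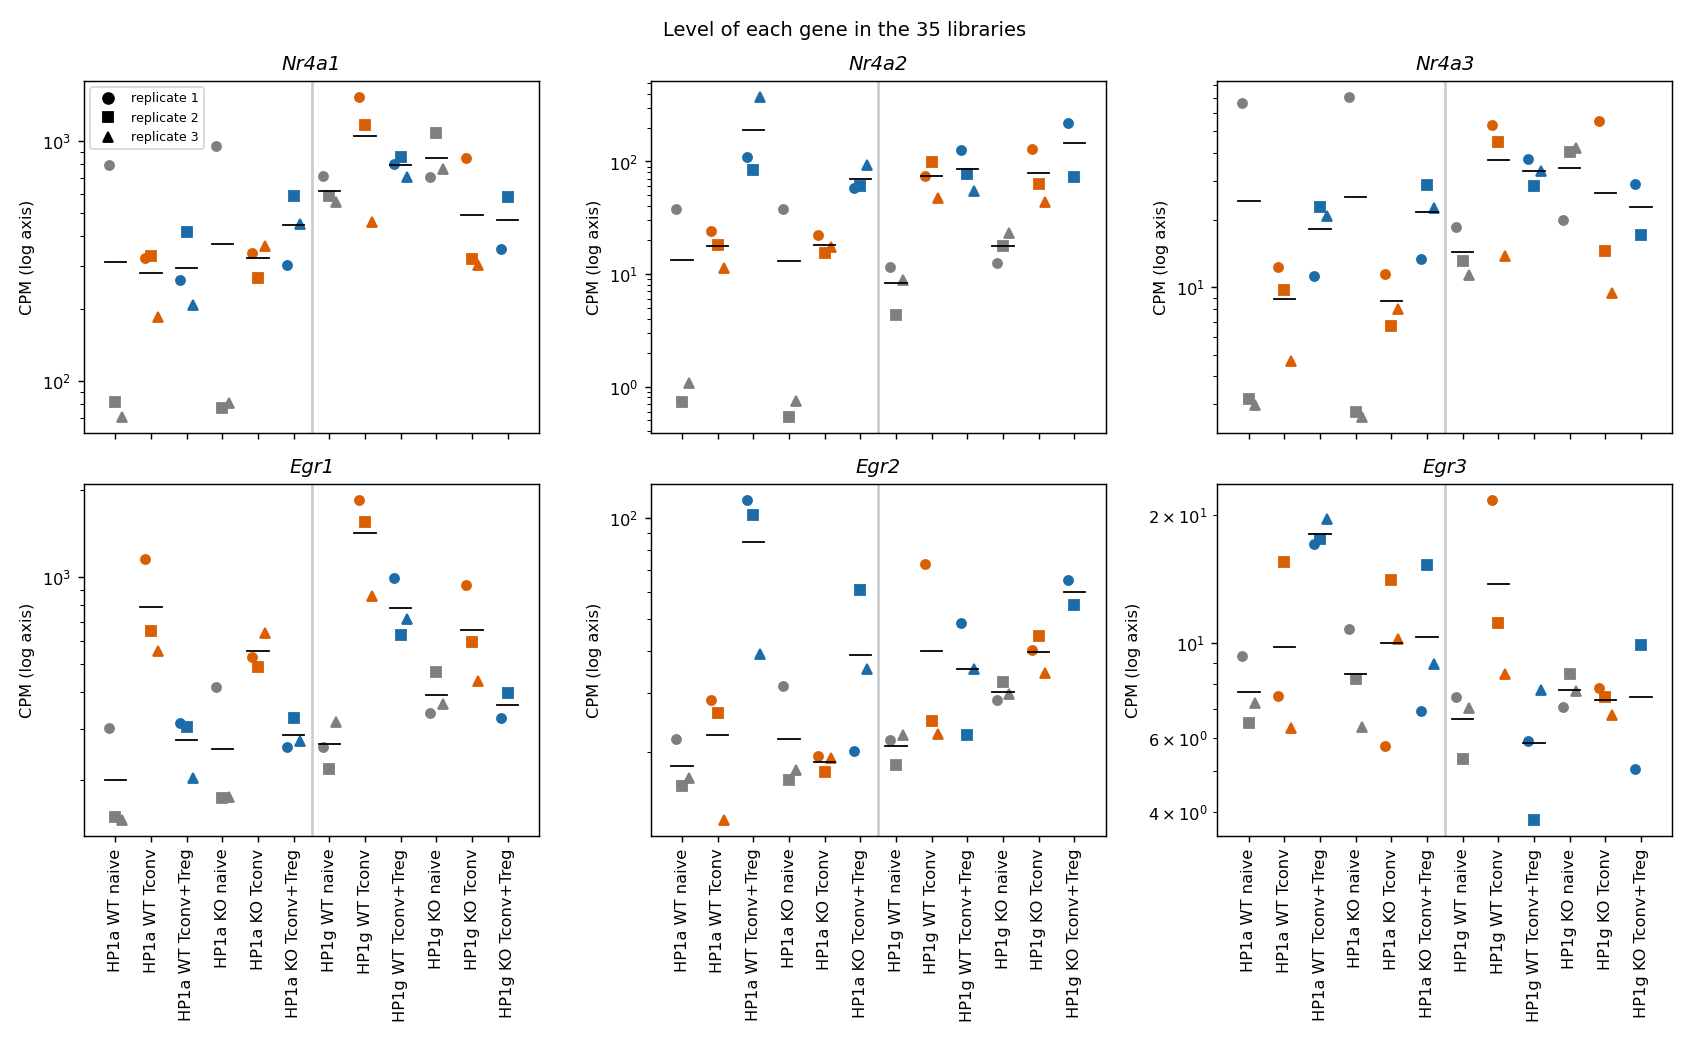
Level of the 6 genes in CPM (y axis, log scale, not starting at 0) in each of the 12 groups (x axis), with 1 point per library, shaped by replicate number and coloured by condition, and a bar at the group mean. Grey circles of the HP1a naive groups (replicate 1) lie far above the grey squares and triangles for the NR4A genes.

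In naive HP1a cells, replicate 1 stood apart from replicates 2 and 3 in both genotypes. Nr4a1 was at 788, 82.1 and 70.7 CPM in WT replicates 1, 2 and 3, and at 952, 77.5 and 81.1 CPM in KO. Nr4a2 was at 38.1, 0.73 and 1.08 CPM in WT and at 37.8, 0.532 and 0.744 CPM in KO. Nr4a3 was at 66.5, 3.16 and 2.98 CPM in WT and at 70.9, 2.77 and 2.62 CPM in KO. Replicate 1 thus exceeded the mean of the others 10.3-fold and 12-fold for Nr4a1, 42.0-fold and 59.2-fold for Nr4a2 and 21.7-fold and 26.3-fold for Nr4a3, in WT and KO.

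The EGR genes moved less in the same libraries. Egr1 was at 302, 149 and 145 CPM in WT and at 417, 173 and 175 CPM in KO, a ratio of 2.05 and 2.39. Egr2 was 1.34-fold and 1.85-fold higher in replicate 1, and Egr3 1.36-fold and 1.48-fold. Among genes averaging 5 CPM or more over the 35 libraries, a mean that Nr4a2 owed mostly to grafted cells, Nr4a2 had the highest ratio of 9883 in WT and of 9892 in KO. Replicate 1 lay above both other replicates and at least 2-fold above their mean for 4 of 6 genes in each genotype. The same held for 3.01% of the 9883 genes in WT and 3.31% of the 9892 in KO. No test was made, since it was these values that drew attention to the 2 libraries.

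Other early genes stood higher in the same 2 libraries. Of the TCR-induced early genes, 15 of 24 with a ratio in WT and 17 of 25 in KO were at least 2-fold higher in replicate 1, and the highest ratio was that of Bhlhe40 (17.4-fold and 18.6-fold), an activation-induced repressor. Irf4, a transcription factor of T cell activation, was 12.4-fold and 18.5-fold higher, and Dusp5, a phosphatase of ERK, 13.2-fold and 12.6-fold. The ratio was below 1 for Myc (0.728 and 0.783) and, in WT, for Zfp36 (0.895). The heat shock genes Hspa1a (7.15-fold and 6.03-fold) and Hspa1b (5.64-fold and 6.01-fold) were also higher. These genes were named after their ratios were seen. None of the 24 genes of the TCR signal chain reached 2-fold. In naive HP1g cells all 6 libraries had high Nr4a1 (557 to 1076 CPM), and heat shock genes summed to between 5091 and 10027 CPM, against 1909 to 2024 CPM in replicates 2 and 3 of naive HP1a, and 4038 CPM (WT) and 3471 CPM (KO) in replicate 1. The part of cell handling in these levels was not tested.

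**Figure D2:**
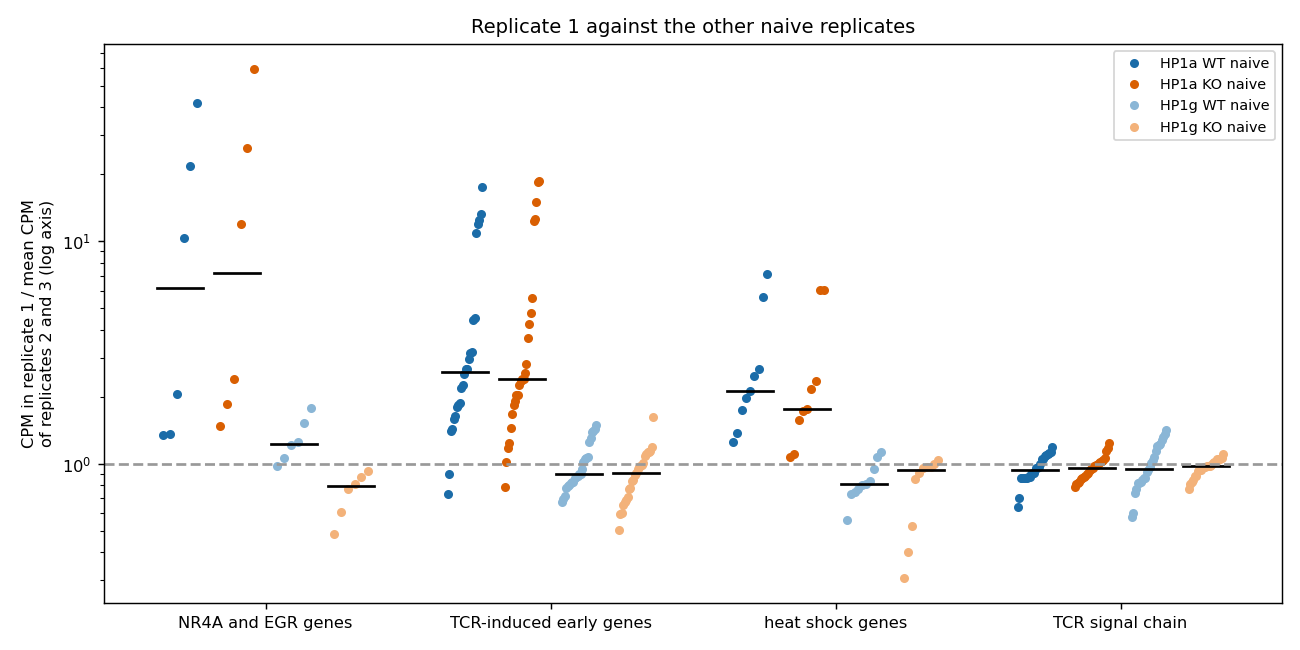
Ratio of the CPM in replicate 1 to the mean of replicates 2 and 3 (y axis, log scale) for genes of 4 lists (x axis) in the 4 naive groups, with 1 point per gene and a bar at the median. All 6 NR4A and EGR genes lie above 1 in both HP1a groups (medians of 6.19 and 7.20), as do most early genes (medians of 2.59 and 2.39), Myc and, in WT, Zfp36 excepted, and TCR signal chain genes lie near 1.

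Tconv were compared with naive cells to see which of these genes stayed high 3 weeks after grafting. Calls needed both an adjusted p below 0.05 and a log2 fold change beyond 1, in edgeR's quasi-likelihood test. In HP1a WT, 1 of 6 genes was called, when 23.1% of all genes were. Egr1 was at 1150, 652 and 557 CPM in Tconv, above all 3 naive libraries, and rose by 1.98 ± 0.42 (log2 fold change ± SE, adjusted p = 0.00981). Without the filter on low counts, which enlarged the number of genes tested, this call was lost (adjusted p = 0.0563). The 3 NR4A genes had log2 fold changes of -0.17 ± 1.02 (Nr4a1), 0.41 ± 1.49 (Nr4a2) and -1.45 ± 1.34 (Nr4a3). In HP1a KO none of the 6 was called in edgeR, when 19.7% of all genes were, nor in DESeq2 (18.7% of genes given an adjusted p, the base of all DESeq2 shares). An unadjusted p under 0.05 was found for 1 of the 6, Egr1 (1.13 ± 0.37, adjusted p = 0.0523), and for 48.9% of all genes.

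Naive replicate 1 was singled out because the NR4A genes and Egr1 were high in it. Fits without it have a rise of these genes built in, which their adjusted p-values do not test. Without naive replicate 1, 4 of 6 genes were called in each HP1a genotype, when 25% of all genes were in WT and 21.2% in KO, and the direction of Nr4a1 and Nr4a3 turned. Nr4a1 then rose by 1.88 ± 0.30 in WT (adjusted p = 0.00427) and by 2.03 ± 0.15 in KO (adjusted p = 0.000192). Nr4a2 rose by 4.29 ± 0.40 (adjusted p = 0.000173) and by 4.82 ± 0.27 (adjusted p = 6.14e-05), and Nr4a3 by 1.55 ± 0.40 (adjusted p = 0.0140) and by 1.70 ± 0.28 (adjusted p = 0.00333). Egr1 rose by 2.42 ± 0.38 (adjusted p = 0.00490) and by 1.67 ± 0.13 (adjusted p = 0.000196). Egr2 and Egr3 had log2 fold changes between 0.13 and 0.53 and were not called. The TCR-induced early genes called as higher went from 7 to 16 of 25 in WT and from 6 to 14 of 25 in KO.

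In HP1g WT, 2 of 6 genes were called, when 23.5% of all genes were. Nr4a2 was at 74.8, 99 and 47.6 CPM in Tconv against 11.7, 4.35 and 8.8 CPM in naive cells, without overlap, and rose by 3.16 ± 0.41 (adjusted p = 0.000864). Egr1 was at 1845, 1552 and 861 CPM against 260, 219 and 316 CPM, again without overlap, and rose by 2.42 ± 0.30 (adjusted p = 0.000725). Both calls held when any single library was left out. Nr4a1 (0.75 ± 0.38), Nr4a3 (1.37 ± 0.46) and Egr3 (1.06 ± 0.36) were not called. Each was called in 1 of 6 fits that left out 1 library, that without replicate 3 of Tconv, when 20.3% of all genes were. They were then at 1.11 ± 0.22, 1.77 ± 0.26 and 1.31 ± 0.33 (adjusted p = 0.0126, 0.00422 and 0.0302). Replicate 3 had the lowest Tconv level of each, so higher values are built into that fit, which its adjusted p-values do not test.

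In HP1g KO, 1 of 6 genes was called, when 23.1% of all genes were. Nr4a2 was at 129, 62.7 and 43.8 CPM in Tconv against 12.4, 17.7 and 23.2 CPM in naive cells, without overlap, and rose by 2.16 ± 0.46 (adjusted p = 0.0134), which held when any single library was left out but was lost without the filter on low counts (adjusted p = 0.0571). Egr1 had a log2 fold change of 0.77 ± 0.26 (adjusted p = 0.0506). Nr4a1 was at 843, 323 and 305 CPM against 707, 1076 and 761 CPM and was not called (-0.77 ± 0.42). Without Tconv replicate 1, the library with 3121 CPM of red cell transcripts, Nr4a1 fell by 1.40 ± 0.16 on the log2 scale (adjusted p = 1.64e-05). That library had the highest Nr4a1 in Tconv, so a fall is built into this fit, which its adjusted p does not test. Of all genes, 27.3% were called in it. The part of red cell RNA in the fall was not tested.

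**Figure D3:**
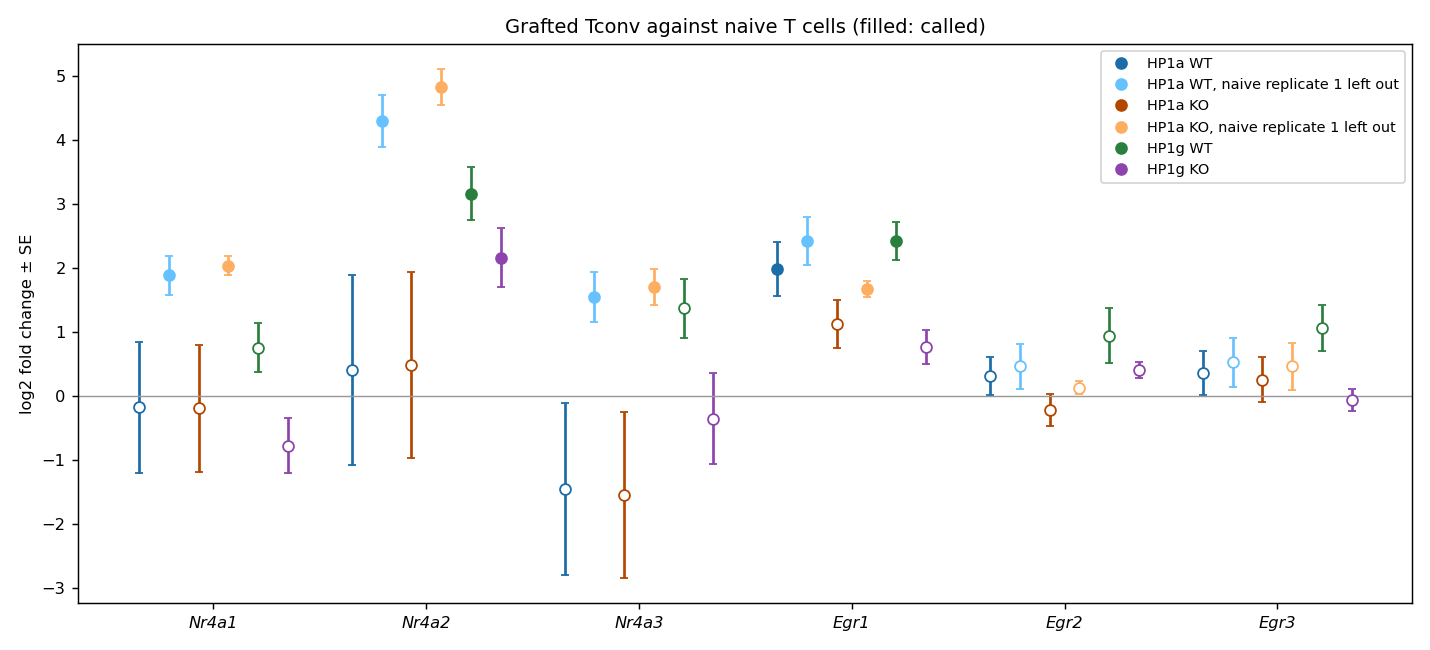
Log2 fold change of Tconv against naive cells (y axis, with SE bars) for each gene (x axis) in the 4 sets of cells, and in HP1a also without naive replicate 1. Filled points passed both thresholds, and leaving out naive replicate 1 moved Nr4a1 from -0.17 to 1.88 in WT and from -0.19 to 2.03 in KO.

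Genes known to work with the 6 were followed in the same 4 sets. Egr4, the fourth EGR factor, was called as higher in each, from at most 0.159 CPM in naive libraries, near the limit of 3 counts, to group means of 2.48 to 3.81 CPM in Tconv. Rxra, a nuclear receptor that pairs with Nr4a1 and Nr4a2, rose by 1.48 to 3.42. Nab2, a corepressor of EGR factors, fell by 1.07 in HP1a WT, by 1.22 in HP1g WT and by 1.01 in HP1g KO, and was not called in HP1a KO. Of the 25 TCR-induced early genes, 14 rose in HP1g WT, and 7 rose and 2 (Jun and Myc) fell in HP1g KO. Bhlhe40, an activation-induced repressor, rose most of them in each set, by 8.33 to 9.23. Of the 24 TCR signal chain genes, 2 were called in HP1g WT (Nfatc2 and Nfatc3, higher) and none in HP1a WT or HP1g KO.

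Tconv with Treg were compared with Tconv alone to see which of these genes changed with Treg present. In HP1a WT, 3 of 6 genes were called, when 5.96% of all genes were. Nr4a2 was at 110, 83.9 and 374 CPM with Treg against 24.1, 18 and 11.2 CPM without, and rose by 3.46 ± 0.63 (adjusted p = 0.0184). Egr2 was at 113, 102 and 39.3 CPM against 28.7, 26.2 and 12.6 CPM, and rose by 1.95 ± 0.45 (adjusted p = 0.0437). Egr1 went the other way, from 1150, 652 and 557 CPM to 314, 305 and 203 CPM, and fell by 1.48 ± 0.31 on the log2 scale (adjusted p = 0.0305). For each of the 3 genes the libraries of the groups did not overlap, which describes the same values and adds no support to the calls. How many of all genes did so was not counted. In these bulk samples, fewer cells with a transcript and less of it per cell cannot be told apart.

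These calls stood close to the threshold. Leaving out any single library kept the direction, with log2 fold changes of 2.48 to 3.79 for Nr4a2, 1.65 to 2.28 for Egr2 and -1.69 to -1.11 for Egr1, but Egr1 and Egr2 lost the call in 5 of 6 fits and Nr4a2 in 3 of 6. Adjusted p reached 0.104, 0.165 and 0.0890 for Nr4a2, Egr2 and Egr1. Without the filter on low counts the calls of Nr4a2 (adjusted p = 0.0704) and Egr2 (0.0699) were lost, and that of Nr4a2 also with all libraries of the line in 1 fit. The share of all genes called was no steadier, at 1.85% without Tconv replicate 3 and 8.91% without replicate 3 of Tconv with Treg. Nr4a3 (1.08 ± 0.41) and Egr3 (0.92 ± 0.35) were not called. Egr3 was at 17.1, 17.5 and 19.6 CPM with Treg, above 7.53, 15.5 and 6.33 CPM without. Nr4a1 was at 263, 417 and 208 CPM with Treg and 326, 330 and 185 CPM without, and the groups overlapped.

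In HP1a KO, 1 of 6 genes was called, when 0.44% of all genes were. Nr4a2 was at 57.9, 60.4 and 93.2 CPM with Treg against 22, 15.2 and 17.3 CPM without, and rose by 1.97 ± 0.23 (adjusted p = 0.0250), a call lost in 4 of 6 fits that left out 1 library (adjusted p up to 0.112) and with all libraries of the line in 1 fit (adjusted p = 0.730). Without replicate 3 of Tconv with Treg, 4 genes of all were called in place of 71. Egr1 was at 259, 326 and 272 CPM against 529, 490 and 643 CPM, without overlap, and its log2 fold change of -0.94 ± 0.13 (adjusted p = 0.0346) was short of the fold threshold. Nr4a3 (1.32 ± 0.32) and Egr2 (1.07 ± 0.37) were not called in edgeR and were called in DESeq2 (2.67% of genes). The difference between the Treg effects of the 2 genotypes, KO minus WT, was not called for any of the 6 in edgeR (0.139% of all genes) or DESeq2 (1.85%), and none had an unadjusted p under 0.05, as 9.74% of all genes did. It was -1.48 ± 0.69 for Nr4a2 (adjusted p = 0.528), -0.88 ± 0.63 for Egr2 and 0.55 ± 0.36 for Egr1.

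Other transcripts moved with the Treg in the HP1a line. Myeloid transcripts summed to 8.26 to 9.96 CPM in WT Tconv and 29.5 to 69.3 CPM with Treg, and to 15.4 to 195 and 182 to 557 CPM in KO. Of 8 Treg markers, 2 were called as higher in WT and none as lower, with a median log2 fold change of 1.22. They were Ikzf2, also among the anergy and exhaustion genes (3.82 ± 0.47), and Gpr83 (3.60 ± 0.50). Foxp3, the factor that defines Treg, was at 13.3, 68.7 and 18 CPM with Treg against 12.1, 9.04 and 4.46 CPM without, which did not overlap (adjusted p = 0.129). Il2ra went the other way, at 10.5, 27.6 and 14.8 CPM against 42.2, 41.8 and 39.5 CPM, also without overlap (-1.18 ± 0.33, adjusted p = 0.0801). Capg (-0.76 ± 0.27) and Tnfrsf18 (-0.15 ± 0.14) were also lower and not called. The summed markers overlapped, at 602 to 833 CPM without and 631 to 793 CPM with Treg, most of it Capg and Tnfrsf18. In KO none of the 8 was called (median 0.06), and Foxp3 overlapped, at 8.39, 35 and 16.3 CPM with Treg against 13.1, 7.42 and 13.2 CPM. The part of other cells in the changes of the 6 genes was not tested. Of 20 anergy and exhaustion genes, 11 rose and 1 fell in WT, with a median log2 fold change of 1.43 against 0.03 over all genes, and 3 rose in KO. Lag3, an inhibitory receptor, rose by 6.15 ± 0.32 in WT and by 3.20 ± 0.37 in KO, and Tox, a transcription factor of exhausted T cells, by 4.08 ± 0.37 and 2.11 ± 0.25. Of the early genes, Spry1 rose and Myc, Dusp5 and Bhlhe40 fell in WT.

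In the HP1g line, the authors state, Treg at the ratio used did not effectively repress the response of WT cells. None of the 6 genes was called in either genotype in edgeR, when 0.0126% of all genes were in WT and 0% in KO, nor in DESeq2, when 0.332% and 1.61% were. An unadjusted p under 0.05 was found for 2 of them in each genotype, and for 6.89% of all genes in WT and 7.62% in KO. The difference between the genotypes' Treg effects was not called for any either, in edgeR (0% of all genes) or DESeq2 (0.0539%), and none had an unadjusted p under 0.05 (3.74% of all genes). Egr3 had the largest difference in WT, at 5.9, 3.84 and 7.78 CPM with Treg against 21.8, 11.1 and 8.45 CPM without, which did not overlap (-1.24 ± 0.41, adjusted p = 0.694). Egr1 was at 992, 629 and 719 CPM with Treg against 1845, 1552 and 861 CPM without in WT (-0.86 ± 0.31), and at 328 and 397 CPM against 941, 596 and 438 CPM in KO (-0.86 ± 0.33). Nr4a2 was at 126, 77 and 54.4 CPM with Treg in WT and overlapped with Tconv (0.22 ± 0.39). Egr2 also overlapped in WT, at 48.6, 22.6 and 35.5 CPM against 73, 24.8 and 22.7 CPM, whereas in KO it was at 65.1 and 55 CPM with Treg, above 40.4, 44.4 and 34.4 CPM without (0.59 ± 0.17, adjusted p = 0.516).

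The Treg effect in WT cells was also compared between lines, HP1a minus HP1g. No gene of the 6 was called in edgeR, when 1.56% of all genes were, and 3 had an unadjusted p under 0.05, as did 15.7% of all genes. Nr4a2 differed by 3.23 ± 0.77 (adjusted p = 0.0599), Egr3 by 2.15 ± 0.57 (adjusted p = 0.0860) and Egr2 by 2.11 ± 0.73 (adjusted p = 0.179), and DESeq2 called these 3 (4.54% of genes). The labels give no batch or date, so line, degree of suppression and experiment cannot be told apart.

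**Figure D4:**
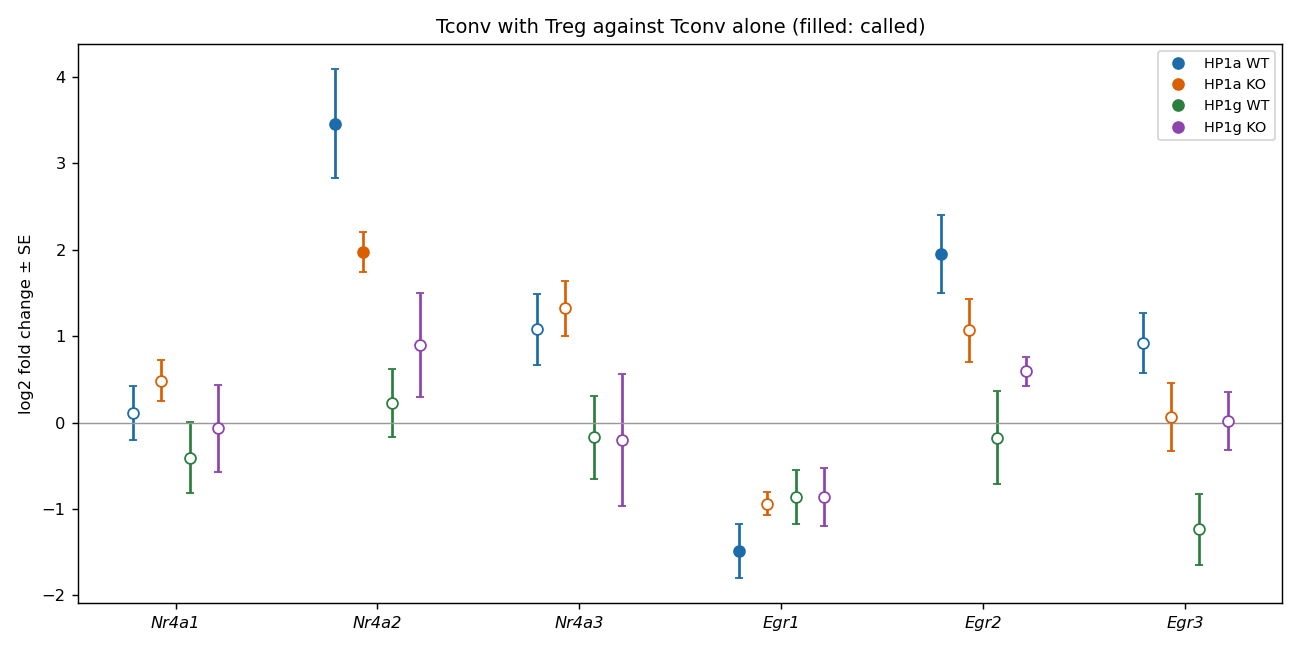
Log2 fold change of Tconv with Treg against Tconv alone (y axis, with SE bars) for each gene (x axis) in the 4 sets of cells; filled points passed both thresholds. Egr1 lies below 0 in all 4 sets (-1.48, -0.94, -0.86 and -0.86), and Nr4a2 is filled in both HP1a sets.

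KO were compared with WT cells in each condition to see whether HP1α or HP1γ set the level of these genes. None of the 6 was called in any of the 6 comparisons in edgeR. The same test did not call the targeted genes either, so a gene that was not called may still differ. Cbx5 in HP1a had -1.03 ± 0.17 in naive cells (adjusted p = 0.990) and -1.42 ± 0.25 with Treg (adjusted p = 0.0860). In Tconv it had -0.89 ± 0.11 (adjusted p = 0.0331), short of the fold threshold. Cbx3 in HP1g had -0.95 ± 0.23 (naive), -0.43 ± 0.11 (Tconv) and -0.53 ± 0.15 (with Treg), with adjusted p = 0.630, 0.320 and 0.260. The share of all genes called was 0% in HP1a naive (0.0772% with the replicate number as a block, where the numbers pair the libraries), 0.103% in HP1a Tconv, 0.123% in HP1a Tconv with Treg, 0.00669% in HP1g naive, 0.0437% in HP1g Tconv and 0% in HP1g Tconv with Treg. In the same order, 0, 0, 3, 5, 2 and 2 of the 6 had an unadjusted p under 0.05, beside 1.87%, 8.53%, 12.1%, 5.78%, 8.42% and 11.8% of all genes. DESeq2 called 0, 0, 0, 1, 1 and 1 of them, and 0.0478%, 1.16% and 3.84% of genes in the 3 HP1a comparisons. In HP1a naive cells the spread of replicate 1 made the SE as high as 1.96, and without replicate 1 of both genotypes the log2 fold changes lay between -0.50 (Nr4a2) and 0.24 (Egr1), again without a call. In HP1a Tconv they lay between -0.50 (Egr1) and 0.22 (Nr4a1). In HP1a Tconv with Treg, Nr4a2 was at 57.9 to 93.2 CPM in KO against 83.9 to 374 CPM in WT (-1.45 ± 0.56, adjusted p = 0.356), Egr2 was -1.15 ± 0.49 and Egr3 was -0.83 ± 0.31.

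In the HP1g line, Egr1 had a log2 fold change of -1.09 ± 0.36 in Tconv (adjusted p = 0.468) and of -1.11 ± 0.23 in Tconv with Treg (adjusted p = 0.199), where the 2 KO libraries used lay below all WT ones, and DESeq2 called both (1.43% and 3.56% of genes). The KO library left out for its read quality had Egr1 at 3283 CPM when all 36 libraries were scaled together, above all these WT libraries. In naive cells the log2 fold change of Egr1 was 0.58 ± 0.20, with 339, 470 and 364 CPM in KO above 260, 219 and 316 CPM in WT. In naive cells Nr4a3 was in KO at 19.9, 40.3 and 42 CPM against 18.7, 13.1 and 11.4 CPM in WT, without overlap (1.27 ± 0.32, adjusted p = 0.630), and was called in DESeq2 (0.208% of genes). Nr4a1 (0.47 ± 0.20), Nr4a2 (1.12 ± 0.39), Egr2 (0.56 ± 0.15) and Egr3 (0.25 ± 0.20) were also higher in naive KO cells, without a call in edgeR. Between lines, the KO effect with Treg, HP1g minus HP1a, was -1.16 ± 0.32 for Egr1 (adjusted p = 0.0829), 2.22 ± 0.87 for Nr4a2 and 1.89 ± 0.66 for Egr2, and none of the 6 was called in edgeR, when 2.72% of all genes were. An unadjusted p under 0.05 was found for 4 of the 6 and for 18% of all genes, and DESeq2 called 2 of the 6 and 7.51% of genes.

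**Figure D5:**
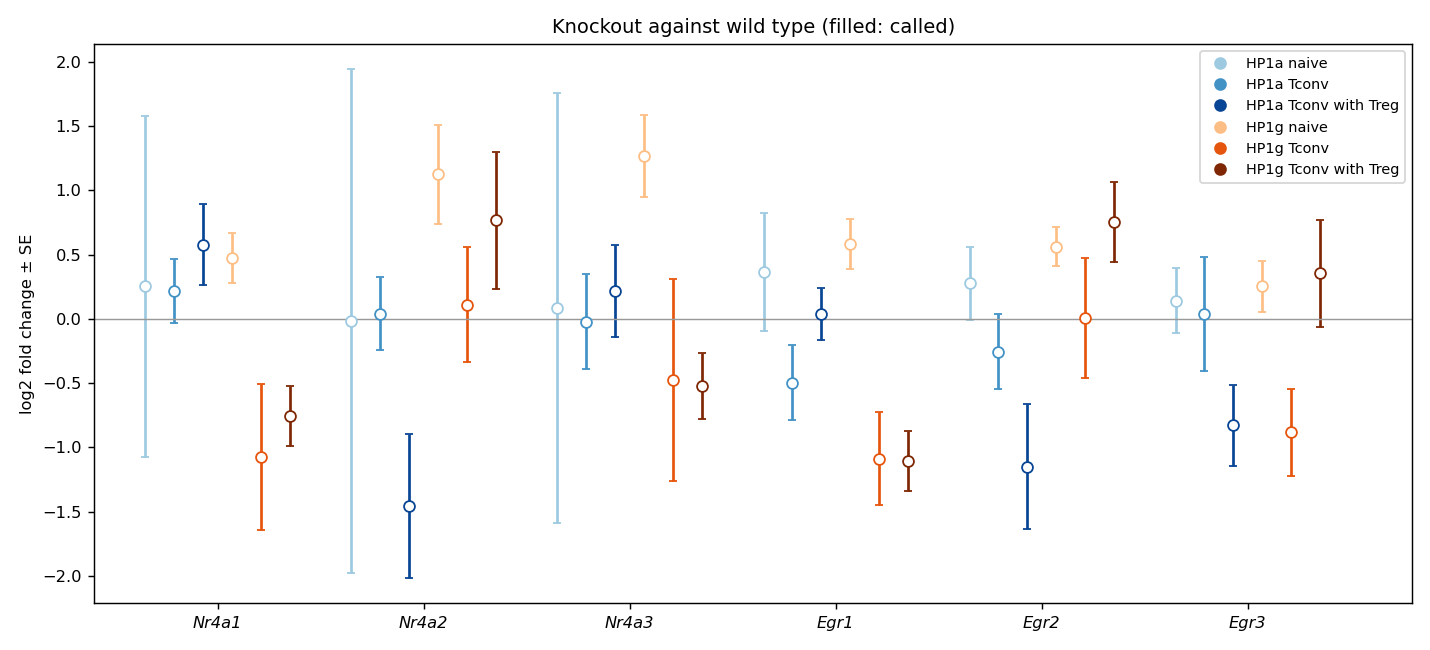
Log2 fold change of KO against WT cells (y axis, with SE bars) for each gene (x axis) in 3 conditions of both lines. No point is filled, since none passed both thresholds, and the bars of the NR4A genes in HP1a naive cells are the longest (SE of 1.33, 1.96 and 1.67).

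The genes most like each member over the 12 group means, on log2(CPM + 1) and among 9390 genes, are given as a description. Maff (r = 0.91), Mafk and Srsf3 were most like Nr4a1, Fryl (r = 0.98), Kdm2b and Rgs16 most like Nr4a2, and Hnrnph1 (r = 0.95) and Itpkb most like Nr4a3. Gpc1 (r = 0.95), Sytl2 and Sulf2 were most like Egr1, Prkca (r = 0.95), Marcksl1 and Ptpn11 most like Egr2, and Cramp1 (r = 0.81), Atl3 and Parp4 most like Egr3. Within the group, Nr4a2 and Egr2 were the most alike pair (r = 0.93), followed by Nr4a1 and Nr4a3 (r = 0.69). The 12 means are not independent of each other, and the HP1a naive means rest on replicate 1.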

How the data were processed

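RNA-seq was made from polyadenylated RNA of sorted or purified CD4+ T cells. The authors trimmed reads with Cutadapt 3.4 in Trim Galore 0.6.7, aligned them with STAR 2.7.10a to GRCm39 (Ensembl annotation 107) and quantified genes with Salmon 1.5.2 in nf-core/rnaseq 3.9. The deposited values are estimated counts per gene, not normalized, and were rounded to whole numbers before testing. Strand setting is not given in the sources used here, so overlapping antisense reads cannot be told apart. Depth per library is given in the results. Levels are CPM after TMM scaling of 35 libraries. Per-kilobase values use the canonical transcript of GENCODE vM39, another annotation than the authors'.

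Each comparison was fitted with edgeR 4.0.16 (filterByExpr, TMM, robust quasi-likelihood test, Benjamini-Hochberg over all genes tested) on the groups compared, without covariates, in R 4.3.3. SE is the log2 fold change divided by the root of F. The code was tested on simulated data. Alternatives were DESeq2 1.42.0, RLE size factors, no filter, no fold threshold, 1 fit per line or over both, a replicate block, the left-out library included and leaving out each library. Replicate numbers were taken to pair libraries where there were at least 3 same-numbered pairs and each correlated above 0.1, which held for HP1a KO against WT naive (0.555 to 0.875) and HP1g WT Tconv with Treg against Tconv (0.174 to 0.504). Named genes were the 6 members, the targeted genes, up to 3 called genes at each end of each list, and the 3 genes most like each member. Genes named for their ratios in naive cells, and the Treg markers named, were chosen after their values were seen. Ratios in naive cells needed a mean over 0.1 CPM in replicates 2 and 3. Members, lists and comparisons were chosen with earlier results of these data known. Comparisons that share Tconv or naive libraries are not independent. The call of the TCR signal chain list between Tconv and naive cells in HP1a KO and a gene in the likeness to Nr4a3 are not reported here.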

Additional observations from a re-analysis of the deposited data

Results flagged for a closer look

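Replicate 3 of the HP1g KO cells grafted with Treg, which entered no comparison, held 4 of the 6 genes above every library of HP1g WT Tconv with Treg when all 36 libraries were scaled together. Egr1 was at 3283 CPM there, against 610 to 974 CPM in those WT libraries and at most 1782 CPM in any other library. Nr4a3 was at 151 CPM, against 27.7 to 36.9 CPM and at most 69.2 CPM elsewhere. Egr2 was at 108 CPM and Nr4a2 at 145 CPM, both above the WT libraries (up to 47.7 and 124 CPM) and within the range of all others. Its GC content, exonic share and transcript end bias were given as abnormal in the methods, and the part of these in the levels was not tested.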

How the results depend on the processing

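Of the 6 genes, the number called moved as follows, beside the share of all genes called. With DESeq2 it was 3 in HP1a KO with Treg (2.67%), 4 in HP1g WT against naive (22.1%), 1 in each of the 3 HP1g KO against WT comparisons (0.208%, 1.43% and 3.56%), 2 for the KO effect between lines (7.51%) and 3 for the WT Treg effect between lines (4.54%). Without a filter on low counts it was 0 in HP1a WT and HP1g KO against naive (14.2% and 14.1%), 1 in HP1a WT with Treg (3.76%), 1 in HP1g KO against WT with Treg (0.630%) and 1 for the KO effect between lines (2.32%). Without the fold threshold it was 2 in HP1a KO with Treg (0.756%) and 2 in HP1g KO against naive (41.1%). With all libraries of a line in 1 fit it was 1 in HP1a KO against naive (17.3%) and 0 in HP1a KO with Treg (0.588%), and with both lines in 1 fit it was 1 for the KO effect (8.38%) and 2 for the WT Treg effect (2.63%). With the replicate number as a block it was 1 in HP1a KO against naive (19.1%), 0 in HP1g KO against naive (21.6%), 1 in HP1g KO against WT Tconv (0.462%) and 1 for the WT Treg effect between lines (1.38%), where the numbers do not pair libraries. In the 2 comparisons where they do, the block left the number at 0, while all genes called went from 0 to 12 in HP1a KO against WT naive and from 2 to 0 in HP1g WT with Treg. HP1g KO against WT Tconv with Treg had 2 pairs (0.204 and 0.432), too few, and there the block left the number at 0 and moved all genes called from 0 to 30. RLE size factors and the left-out library left every number as it was.

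Leaving out 1 library at a time gave 1 to 4 genes in HP1a WT against naive, 0 to 4 in HP1a KO against naive, 0 to 3 and 0 to 2 in HP1a WT and KO with Treg, 2 to 5 in HP1g WT against naive, 1 to 2 in HP1g KO against naive, 0 to 1 in HP1g KO against WT with Treg and 0 to 1 for the WT Treg effect between lines. Leaving out naive replicate 1 turned 4 uncalled values into calls of the opposite sign. Over the leave-one-out fits, the log2 fold change against naive cells ranged from -0.65 to 1.88 for Nr4a1 and from -1.98 to 1.55 for Nr4a3 in HP1a WT, and from -0.69 to 2.03 and from -2.09 to 1.70 in HP1a KO. Of 1313 uncalled values in other settings, 97 had the opposite sign. With RLE size factors, the 72 group means moved by at most 3.02%. With Spearman correlation, the 3 genes most like Nr4a1, Nr4a3, Egr1 and Egr2 were all replaced. The fits without replicate 1 of both groups were chosen after seeing the data and called 0 of the 6. In HP1a KO against WT naive that fit called 26 of all genes. Counts of all genes called moved by over 1.5 times, in settings that kept every library and on leaving out 1: 3702 to 3422-7324 and 3366-4132 in HP1a WT against naive, 3103 to 3014-6408 and 2744-3476 in HP1a KO against naive, 932 to 781-1755 and 306-1450 in HP1a WT with Treg, 71 to 68-431 and 4-58 in HP1a KO with Treg, 0 to 0-26 and 0 in HP1a KO against WT naive, 16 to 5-209 and 4-22 in HP1a KO against WT Tconv, 20 to 5-713 and 0-115 in HP1a KO against WT with Treg, 24 to 19-357 and 9-91 in HP1a Treg effect between genotypes, 3668 to 3440-6538 and 3290-4473 in HP1g KO against naive, 2 to 0-57 and 0-2 in HP1g WT with Treg, 0 to 0-269 and 0-21 in HP1g KO with Treg, 1 to 0-38 and 0-21 in HP1g KO against WT naive, 7 to 6-264 and 0-12 in HP1g KO against WT Tconv, 0 to 0-627 and 0-362 in HP1g KO against WT with Treg, 0 to 0-15 and 0-53 in HP1g Treg effect between genotypes, 506 to 12-1650 and 51-903 in the KO effect between lines and 267 to 237-823 and 75-448 in the WT Treg effect between lines. Highest leave-one-out counts in the 4 comparisons of HP1g KO Tconv with Treg rest on 1 library of that group. The cause of the moves in this section was not tested.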
